A study of Mus musculus with 7 samples.

Results

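Krüppel-like factors (KLFs) are transcription factors that bind GC-rich and CACCC-type promoter elements through C-terminal zinc fingers. Here 10 members of the family, Klf2, Klf3, Klf4, Klf6, Klf7, Klf9, Klf10, Klf11, Klf13 and Klf16, were looked up by gene symbol, older symbols included, in 2 lists of m6A peaks in mouse cells. The muscle table held 5412 peaks in 3983 genes, and 5 of the 10 members had a peak there, as did 16.9% of all protein-coding genes. The C2C12 list held 5433 peaks in 3970 genes, and 7 of the 10 had a peak in it, as did 17.6% of all protein-coding genes. The 10 members are not the whole family and were chosen with earlier results of these data known, so their counts hold for them alone.

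N6-methyladenosine (m6A) is a methyl mark placed on adenosines of mRNA by a complex whose catalytic subunit is METTL3, mostly within short motifs such as GGAC, and it is often found near stop codons and in 3′UTRs. KLF proteins differ mainly outside the zinc fingers, where some carry activation domains and others bind corepressors. Many KLF mRNAs are short-lived and are induced quickly by injury, hormones or growth factors, and members of the family act in myoblast differentiation, in endothelium and in macrophages.

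m6A MeRIP-Seq, in which fragmented RNA is precipitated with an antibody to m6A (IP) and sequenced beside the unprecipitated input, was used to map methylated mRNA in injured muscle and in myoblasts. The muscle samples came from C57BL/6 mice of 2 genotypes, METTL3 cKO and control (CTL), and each genotype gave 1 IP and 1 input library. METTL3 was deleted through Pax7CreERT2, which limits the deletion to satellite cells, the stem cells of muscle, and the CTL mice carried Pax7CreERT2 with wild-type METTL3. Mice of both genotypes received tamoxifen for 5 days and cardiotoxin (CTX) in the tibialis anterior, and muscle was taken at day 2. The age and number of the animals behind each library were not given in the sources used here. C2C12 cells, a mouse myoblast line, gave 2 IP libraries, which the labels call knockout, and 1 input library, which they call normal; the study's description of that experiment names no knockdown, so the list was read as one of C2C12 peaks without a comparison.

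Each muscle peak carried 1 fold enrichment of IP over input for the whole experiment. The C2C12 peaks carried positions, annotation and distance to the transcription start site, but no fold enrichment. No value was given per library, so there was no replicate spread and no test, and the depth of the libraries is unknown. The muscle table was also a selection, since all 5412 peaks passed an FDR of 0.05 in the authors' comparison of the genotypes after rounding. A member without a peak in it therefore had no listed peak, which is not the same as having no m6A. In this bulk RNA, fewer cells of a type and less RNA per cell cannot be told apart.

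The lists were set against markers of the labelled cells, with the 16.9% and 17.6% of all protein-coding genes as the shares to read the counts by. Of 5 satellite cell and myoblast markers, 4 had a muscle peak, with a highest fold enrichment of 39 for Pax7, 13.5 for Myod1, 6.82 for Myog and 2.12 for Des, and 3 had a C2C12 peak. The median of these 4 values was 10.2, beside 19.3 for the highest peaks of all genes in the table. Of 6 muscle fibre markers only Ttn was in the muscle table, with 27 peaks of at most 8.13, and none was in the C2C12 list. The muscle table, but not the C2C12 list, also held 2 of 5 macrophage and leukocyte markers (Ptprc, 3.28, and Itgam, 2.81), 1 of 4 endothelial markers (Cdh5, 155) and 1 of 4 neutrophil markers (Csf3r, 76.2). Fibroblast markers were in both, 2 of 4 in muscle, with Pdgfra at 49.7 and Col1a1 at 3.52, and 3 of 4 in C2C12. Counts of 1 of 4 or 1 of 6 are near the share of all genes, and a peak gives no level of a transcript, so the cell types in the muscle RNA, which the label names as muscle stem cell, were not established by these lists. The part of other cells in the KLF peaks was not tested.

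The first question was which members carried a listed peak. In muscle these were Klf3, Klf4, Klf6, Klf7 and Klf13, 5 of 10, beside 16.9% of 21900 protein-coding genes. In C2C12 they were Klf2, Klf3, Klf4, Klf6, Klf9, Klf10 and Klf13, 7 of 10, beside 17.6% of all protein-coding genes. Klf3, Klf4, Klf6 and Klf13 were in both lists, 4 of 10 beside 7.32%. They made up 4 of the 5 members in muscle and 4 of the 7 in C2C12, and over all genes these shares were 43.2% and 41.4%. Klf11 and Klf16 had no peak in either list. Presence in a list also requires the transcript to be expressed, and expression was not measured by either table. Because the members were chosen with earlier results of these data known, the gaps to the shares of all genes cannot show an enrichment.

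By role, the activators Klf2, Klf4, Klf6 and Klf7 were listed in 3 of 4 cases in each sample, with Klf2 missing from muscle and Klf7 from C2C12. Klf3, which represses through the corepressor CtBP, was in both lists. Of the 5 members that recruit the corepressor Sin3A, Klf9, Klf10, Klf11, Klf13 and Klf16, Klf13 was in the muscle table and Klf9, Klf10 and Klf13 were in the C2C12 list. Beside the 16.9% and 17.6% of all genes, 1 of 5 in muscle is near the share of all genes. With 1 to 5 genes in a role these counts describe the genes named and were not compared.

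Among the activators, Klf4 had the strongest muscle peak of the members. Klf4, one of the reprogramming factors and a regulator of macrophages and vascular smooth muscle, lies on the minus strand of chromosome 4 (ENSMUSG00000003032, 55527137 to 55532475 in GRCm38). Its single peak, annotated to the CDS, ran from 55527561 to 55532197 with a fold enrichment of 120, rank 751 of 5412 peaks, and a p-value listed as 0. This was above 86.1% of all peaks or equal to them, and above or equal to 76.3% of CDS peaks. It was 41.7 times the value of Klf6 and 7.55 times that of the next highest member, Klf7.

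The Klf4 peak was also long. It spanned 4637 bases, 86.9% of the gene, and was made of 5 exon blocks with 2362 bases in all; 41 peaks of the table had 5 or more blocks, and 103 covered as many bases or more. The table listed 13 GGAC sites for it, of which 6 lay in exon blocks and 7 between them. Counted from the 5′ end of the gene, the first block, at 278 to 608, held 4 of these 6 sites in 331 bases. The third block, at 1492 to 2476, was the longest with 985 bases and held 0, and the second, at 705 to 845, held 0 in 141 bases. The fourth, at 2593 to 2757, and the fifth, at 4175 to 4914, held 1 each. The table gave no finer position of the mark within the peak, and although the peak was annotated to the CDS, it ended 424 bases before the 3′ end of the gene.

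Klf7 and Klf6, the other activators in muscle, had 1 peak each, both in the 3′UTR. Klf7, known for its role in neurons and their axon growth, had the second highest fold enrichment of the members, 15.9, at 64029985 to 64030314 of chromosome 1 (ENSMUSG00000025959, minus strand, p listed as 7.2e-09). That ranked 2451 of 5412, above or equal to 62.1% of 3′UTR peaks. The peak had 330 bases, ended 537 bases before the end of the gene and had 0 listed GGAC sites. Klf6, an early response gene of tissue injury, had the lowest value, 2.88, at 5869946 to 5870155 of chromosome 13 (ENSMUSG00000000078, plus strand, p listed as 1.2e-07). It ranked 4835, above or equal to 10.9% of 3′UTR peaks. The Klf6 peak had 210 bases with 1 GGAC site, and it ended 238 bases before the gene end. The activators thus held both the highest and the lowest fold enrichment of the members in muscle.

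Klf3 had 3 muscle peaks, and it was the only one of the 5 listed members with 3 or more, beside 6.45% of all genes in the table. The gene, ENSMUSG00000029178, lies on the plus strand of chromosome 5 at 64803521 to 64832901. Its strongest peak, with a fold enrichment of 6.90, was annotated to the 5′UTR at 64803508 to 64803778 and had 271 bases and 1 GGAC site (p listed as 7.9e-23). It was the only 5′UTR peak of the members, and it lay below the median of all 5′UTR peaks, 9.54. The other peaks were in the 3′UTR. The one at 64830802 to 64830952 had a fold enrichment of 4.26 and 0 GGAC sites, and the one at 64831702 to 64831912 had 4.71 and 1 site. All 3 were in the lower part of the table, at ranks 3612, 4296 and 4150.

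The 5′UTR peak of Klf3 began 13 bases before the RefSeq start of the gene. The sequence at this edge is shown because it places the peak at the very start of the transcript. It is chr5:64803508-64803537 of the plus strand in RefSeq's GRCm38.p6, with 13 bases before the RefSeq start in lower case and the first 17 bases of the gene in capitals.
Klf3 peak start: cccggggaggctcGCAGAGCGAGCGGCGCC
The first 63 bases of the peak, those within RefSeq's promoter window, held 0 GGAC on the strand of the gene, so the listed site of this peak lay further into it.

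Klf13, a Sin3A-binding repressor known from T lymphocytes, had 1 peak in the 3′UTR at 63888891 to 63889937 of chromosome 7 (ENSMUSG00000052040, minus strand). With 1047 bases in 1 block it was the longest single-block peak of the members, with 2 GGAC sites. Its fold enrichment of 12.8 ranked 2714 and lay just under the median of all peaks, 12.9, but above or equal to 57.0% of 3′UTR peaks. Its p-value was listed as 1e-112, smaller than that of Klf7 although the fold enrichment of Klf7 was higher. The other Sin3A-binding members, Klf9, Klf10, Klf11 and Klf16, had no listed muscle peak.

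**Figure D1:**
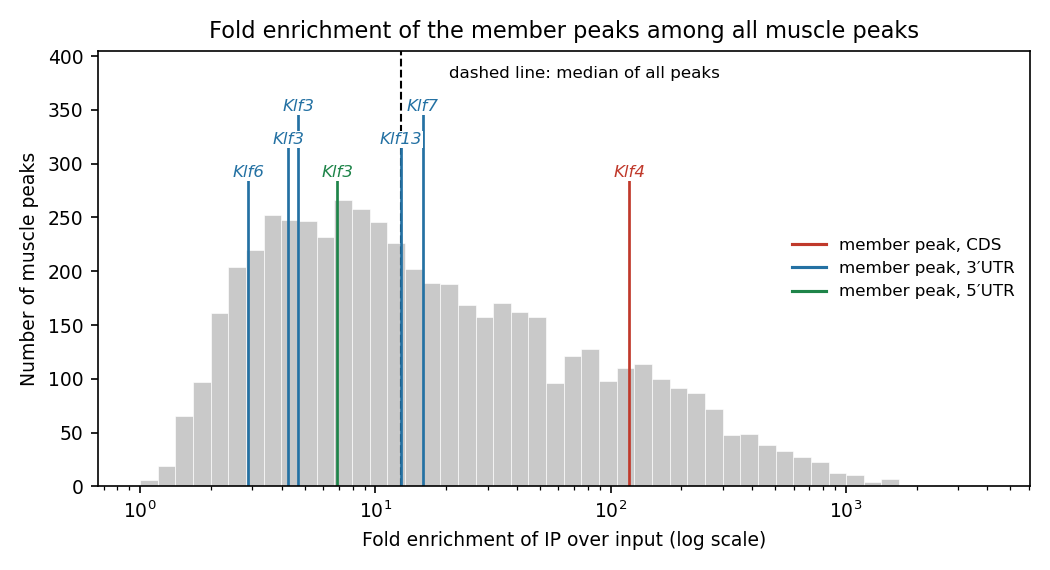
Fold enrichment of IP over input for all 5412 muscle peaks (grey bars, number of peaks on the y axis, log scale on the x axis), with the 7 peaks of the members as lines coloured by annotation and the median of all peaks, 12.9, dashed. Klf4 stands at 120 and Klf7 at 15.9, Klf13 lies just under the median at 12.8, and the Klf3 and Klf6 peaks lie below it.

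The members' peaks were then set against the whole table. Taking the highest peak of each gene, the median fold enrichment was 12.8 over the 5 members and 19.3 over all genes of the table. Of the 7 member peaks, 2 were at or above the median of all peaks, where 50.1% of all peaks are. Annotation moves with fold enrichment in this table, with medians of 26.7 in CDS peaks, 9.94 in 3′UTR peaks and 9.54 in 5′UTR peaks. Within the 3′UTR, 2 of 5 member peaks were at or above the median for that annotation. The 3′UTR held 5 of the 7 member peaks, 71.4% with a 95% Wilson interval of 35.9% to 91.8%, beside 48.0% of all peaks. With 7 peaks, 3 of them from Klf3, the interval is too wide to tell these shares apart, and it treats the peaks as independent. The CDS and the 5′UTR held 1 each.

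A listed GGAC site was present in 5 of the 7 peaks (71.4%, interval 35.9% to 91.8%) and in 70.6% of all peaks. The share varied with annotation, from 62.0% of all 3′UTR peaks to 84.5% of all CDS peaks. Within the 3′UTR, 3 of 5 member peaks held a site. Over all peaks 4.63 sites were listed per 1000 exon bases, with 4.12 in 3′UTR peaks and 5.04 in CDS peaks. The members had 18 listed sites over 4582 exon bases, 3.93 per 1000 bases. This value rested on Klf4, which held 72.2% of the sites, and was 2.25 without it. It also depended on which sites were counted. Of all 14306 listed sites, 913 or 6.38% lay between the exon blocks of their peaks, in 250 of 697 peaks with several blocks. With sites inside exon blocks only, the members had 11 sites and 2.40 per 1000 bases, beside 4.34 over all peaks. With all listed sites over the whole span of the peaks the values were 2.63 and 3.34. Among peaks at or above the median in fold enrichment, Klf4 and Klf7 together had 4.83 listed sites per 1000 bases, close to the 4.88 of all such peaks and above the 4.63 of the whole table. That match rested on the 7 Klf4 sites between exon blocks, since inside exon blocks the same peaks had 2.23, beside 4.52 of all such peaks. The gap between members and table was thus larger with sites inside exon blocks than with all listed sites, and no error could be put on it.

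In C2C12 the 7 listed members had 9 peaks. Coding exons held 6 of the 9 and 52.6% of all peaks in the list, and the 3′UTR held 3 of the 9 (33.3%, interval 12.1% to 64.6%) and 25.9% of all peaks. The median length was 322 bases over the member peaks and 285 bases over all. The list gave no fold enrichment, so the peaks were described by annotation, length and genomic distance from the transcription start site (TSS) to the peak centre. Coordinates are not given for them, because only 1 of the 9 lay inside its gene in GRCm38, against 6 of 7 in muscle.

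Klf4 again stood out among the activators, with 3 C2C12 peaks, and it was the only one of the 7 members with 3 or more, beside 7.18% of all genes in the list. A coding exon peak of 574 bases was centred 1792 bases from the TSS, another of 212 bases at 4220, and a 3′UTR peak of 283 bases at 4632. Klf6 had 1 coding exon peak of 359 bases at 3434. Klf2, a flow-responsive factor of endothelium that also keeps T cells quiescent, had a 3′UTR peak of 357 bases at 1940 and no listed muscle peak. Klf7 was the only activator without a C2C12 peak.

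Among the repressors, Klf3 had 1 coding exon peak of 212 bases, 25500 bases from the TSS. Klf13 had the longest member peak of the list, 801 bases in the 3′UTR, rank 188 of 5433 by length, centred at 48172. Klf9, which is induced by glucocorticoids and thyroid hormone, had a coding exon peak of 214 bases at 588, the closest of the members to the TSS. Klf10, an early target of TGF-β, had one of 322 bases at 4674. Klf11, its close relative, and Klf16 had none. The Sin3A-binding members with a C2C12 peak thus had it in a coding exon (Klf9, Klf10) or in the 3′UTR (Klf13).

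For the 4 genes in both lists, positions were set side by side by distance from the gene start. These distances run along the genome and include introns, so the gaps below are not distances along the mRNA. The lists use different coordinates and possibly different start sites, so a shared position was not tested. In Klf4 the coding exon peak at 1505 to 2079 fell within the third muscle block, which held no GGAC site. The 3′UTR peak at 4490 to 4774 fell within the fifth block, and 152 bases of the peak at 4114 to 4326 fell in the same block. In the other genes the peaks were apart. The Klf13 peaks were both in the 3′UTR with a gap of 405 bases. In Klf3 the C2C12 peak lay 1675 bases from the nearest muscle peak, and in Klf6 the gap was 4843 bases, with a coding exon peak in C2C12 and a 3′UTR peak in muscle. The same gene in both lists therefore did not mean the same annotated region for Klf3 and Klf6.

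**Figure D2:**
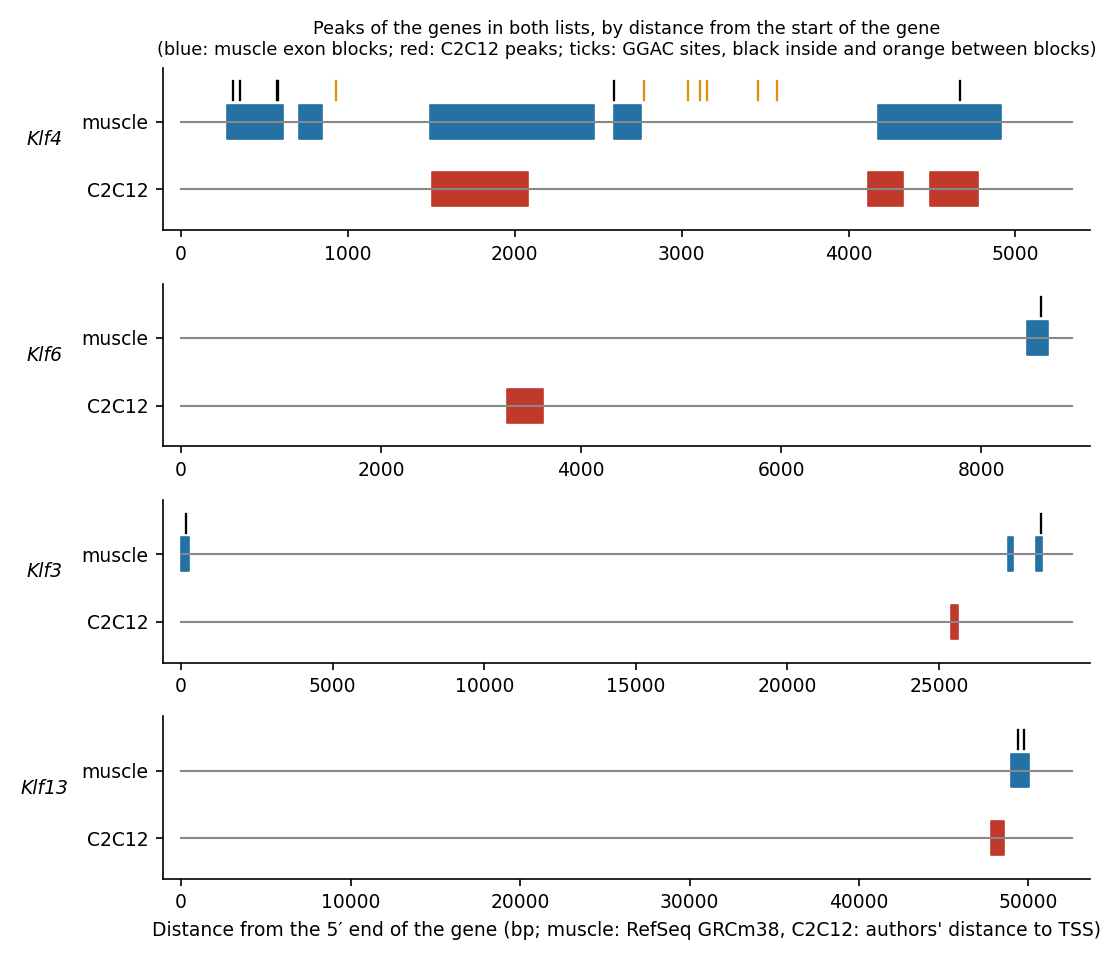
Peaks of Klf4, Klf6, Klf3 and Klf13 by genomic distance in bases, introns included, from the 5′ end of the gene. Muscle exon blocks are in blue, C2C12 peaks in red and listed GGAC sites are ticks, black inside and orange between muscle blocks. All 3 C2C12 peaks of Klf4 touch a muscle block, while those of Klf6, Klf3 and Klf13 lie 4843, 1675 and 405 bases from one.

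Genes that work with KLFs were counted in the same way, in lists also chosen with earlier results of these data known. The shares of all protein-coding genes to read these counts against are again 16.9% in muscle, 17.6% in C2C12 and 7.32% in both. The Sp factors, which share the zinc finger type and the GC-rich sites, had 1 of 9 genes in muscle, Sp1 with a fold enrichment of 6.47, and 3 of 9 in C2C12, where Sp1 had 2 peaks and Sp3 and Sp8 had 1 each. Only Sp1 was in both, and the muscle count was near the share of all genes. Of 10 cofactors, 4 were in muscle, 5 in C2C12 and 3 in both. The acetyltransferases Crebbp and Ep300, coactivators of KLFs, had fold enrichments of 604 and 308, whereas Kat2b with 10.3 and Ctbp1 with 6.48 lay below the median of all genes, 19.3. The values of the 4 cofactors thus fell into a high and a low pair, and their median, 159.2, lies in the gap between these and stands for no gene. Ep300 had 5 peaks in C2C12 and Crebbp 4, while Ctbp1, Ctbp2 and Hdac1 had 1 each.

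Of 6 ubiquitin ligases known to act on KLF proteins, 2 were in muscle, Fbxo32 at 11.9 and Wwp1 at 2.76, with a median of 7.33. In C2C12 3 of them had 1 peak each, Siah1a, Fbxo32 and Fbxw7, so Fbxo32 was in both. Of 15 genes that signal to KLF promoters, 9 were in muscle, 9 in C2C12 and 6 in both, and the median fold enrichment was 19.9, close to that of all genes. The kinase Map3k3, upstream of the ERK5 pathway that induces Klf2 and Klf4, had 258. Smad3 and the receptor Tgfbr2, of the TGF-β pathway that induces Klf10, had 102 and 27.9, and the other 6 lay between 3.78 and 26.7. In C2C12 Mapk7, the gene of ERK5, had 3 peaks, and Tgfbr2, Smad3, Foxo1 and the glucocorticoid receptor Nr3c1 had 2 each.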

How the data were processed

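m6A MeRIP-Seq data comprised 4 muscle libraries, from METTL3 cKO and CTL mice, and 3 C2C12 libraries. The authors mapped the reads and called the peaks; the submitters' notes name TopHat, MACS2 and mm10 without saying which list each made. For each muscle peak the authors deposited a p-value and a ratio, the fold enrichment of IP relative to input. The deposited log2 fold change, p-value and FDR of the comparison of the genotypes were not used, except that the FDR was read to learn that the table is a selection. The C2C12 list held positions, annotation and distance to the TSS. Depth is unknown.

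Muscle positions were read in GRCm38 and written from 1. Genes were matched to RefSeq's GRCm38.p6 by symbol or, in C2C12, by accession, for 3811 of 3983 and 3967 of 3970 genes. Of 94 listed GGAC positions within RefSeq promoter windows, 82 marked the adenosine of a GGAC or the base before it. C2C12 distances were taken as those of the peak centre, which held within 1 base for 1021 of 1021 transcripts with several peaks. Python 3.11.15, pandas 2.3.3, numpy 2.4.6, scipy 1.17.1 and matplotlib 3.10.9 were used, and the functions were tested on simulated data. Wilson intervals cover counting error only. No test was made.

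The members and lists were chosen with earlier results of these data known. Named genes were the 10 members, the Sp family and, from each list, up to 3 genes per table with the highest fold enrichment in muscle and the most peaks in C2C12, ties included; Ctbp1 in muscle and the marker genes with a peak were added after their values were seen. The planned rule also covered the remaining genes of the KLF family; these, with or without a peak, are not reported here. Site density was planned with the sites as listed. Counting inside exon blocks or over whole spans, and leaving out Klf4, were chosen after seeing the data.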

Additional observations from a re-analysis of the deposited data

How the results depend on the processing

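The 8 results were recomputed under 21 alternatives, of which 6 on GGAC sites were chosen after seeing the data. A count, median or density was taken as similar within a factor of 1.5, a chosen limit, and a share within its Wilson interval; with 7 or 9 peaks, some from 1 gene, that interval holds most values and says little about stability. By these measures 15 alternatives were similar. Counts fell when only muscle peaks not below the median of the table in fold enrichment were kept. The members in the muscle table went from 5 to 2, Klf4 and Klf7, and those in both lists from 4 to 1, Klf4. Fewer peaks enter by construction, 50.1% of all. The share of all protein-coding genes under this filter was not counted, so the drops are not read as particular to the members. The density of GGAC sites went from 3.93 to 2.25 per 1000 bases without the Klf4 peak, to 2.40 with sites inside exon blocks only, and to 2.25 with both. Over whole spans it was 2.63, close to the limit, and with peaks not below the median it was 4.83 as listed but 2.23 inside exon blocks. The share of member peaks with a GGAC site was 3 of 6 within 200 bases around the centre of single-block peaks, and the median fold enrichment was 8.76 with 3′UTR peaks only.

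No paired analysis was possible because no value was given per library. For the same reason no library was left out in turn, and no peak was compared between replicates. The muscle table holds only peaks selected on the comparison of the genotypes, and a member without one was not shown to lack m6A. Unknown depth leaves no limit of detection for either list.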
